A study of Homo sapiens with 4 samples.

Results

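The replication-dependent histone genes are the multicopy genes that supply the bulk of new histone protein in S phase. Members were every row of the count table whose gene symbol falls in the H1-1 to H1-6, H2AC, H2BC, H3C or H4C series, which gave 69 genes of 61860 rows. They comprise 6 linker H1 genes, 17 H2A genes, 18 H2B genes, 13 H3 genes and 15 H4 genes. The cells were HT1376, an established bladder cancer line, and every library was made from total RNA. 2 samples had 48 h with 1 nM enfortumab vedotin (EV), and 2 had 48 h with the control that the labels call WFI. EV is an antibody directed at nectin-4, joined to the microtubule-disrupting drug monomethyl auristatin E. The labels do not tell whether the samples are separate cultures; every p-value here therefore reflects sample-to-sample spread that could be technical.

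A nucleosome wraps DNA around a core of paired H2A, H2B, H3 and H4 proteins, and H1 binds the linker DNA beside it. The genes for these proteins lie in clusters, many of them as H2A and H2B pairs that share one promoter region. They are transcribed in S phase at the histone locus body, where NPAT acts as coactivator. Their mRNAs are the metazoan mRNAs that normally end in a stem-loop instead of a poly(A) tail. The stem-loop is bound by SLBP, the U7 snRNP guides the cleavage that forms the end, and the mRNAs are degraded when DNA synthesis stops. Some of these genes also make polyadenylated transcripts.

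The stem-loop is the feature that sets these mRNAs apart, so the forms found in the members are shown, read from GENCODE 29 transcripts (GRCh38), 5′ to 3′, with the pairing arms in capitals and the loop in lower case.
H2A, H2B and H3 form with a C-ending loop: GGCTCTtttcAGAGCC
H2B and H3 form with an A-ending loop: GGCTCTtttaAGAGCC
H4 form with a C-ending loop: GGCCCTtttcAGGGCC
H4 form with a T-ending loop: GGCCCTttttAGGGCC
The search was for an arm GGNNNT followed by a loop TTNN and an arm ANNNCC on the sense strand, with the 6-base arms able to pair across the 4-base loop. A match was found in 29 of 69 members. All 29 were among the 35 members whose annotated transcript runs 40 or more bases past the stop codon. Of 19615 other protein-coding genes 27 held a match (0.138%). The arm GGCTCT was found in 6 H2A, 11 H2B and 4 H3 genes and the arm GGCCCT in 8 H4 genes, and no matched gene carried the arm of the other group. The first form was present in 6 H2A, 8 H2B and 3 H3 genes, the second in 3 H2B genes and 1 H3 gene, the third in 5 H4 genes and the fourth in 3 H4 genes. The annotated transcript ran on past the stem-loop by 1 base in H2BC6 and by 5 bases in H2BC15, against 1917 bases in H2BC26 and 1114 bases in H2AC6. 

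Promoters are shown for H2BC8, the H2B gene with the largest fitted fold change among those above the count cutoff in all 4 libraries, for H2BC4, an H2B gene that was not called, and for H1-2, the member that was lower in EV. The sequences are from RefSeq (GRCh38.p14, minus strand, 250 bases before to 50 after the annotated start), 5′ to 3′, with capitals marking the octamer ATTTGCAT, the CCAAT box and the TATA box TATAAA on either strand.
H2BC8, chr6:26216639-26216938: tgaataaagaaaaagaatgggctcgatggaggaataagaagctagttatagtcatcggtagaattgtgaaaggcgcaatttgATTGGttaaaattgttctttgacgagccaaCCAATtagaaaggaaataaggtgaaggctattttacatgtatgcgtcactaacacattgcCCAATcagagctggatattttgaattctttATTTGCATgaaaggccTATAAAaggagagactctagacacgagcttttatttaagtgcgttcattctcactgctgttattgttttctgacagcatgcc
H2BC4, chr6:26123877-26124176: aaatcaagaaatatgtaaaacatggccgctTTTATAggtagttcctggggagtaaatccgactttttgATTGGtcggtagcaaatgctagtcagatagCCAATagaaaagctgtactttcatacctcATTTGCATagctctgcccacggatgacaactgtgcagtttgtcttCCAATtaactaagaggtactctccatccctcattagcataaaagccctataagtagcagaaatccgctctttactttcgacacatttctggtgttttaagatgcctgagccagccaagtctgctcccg
H1-2, chr6:26056421-26056720: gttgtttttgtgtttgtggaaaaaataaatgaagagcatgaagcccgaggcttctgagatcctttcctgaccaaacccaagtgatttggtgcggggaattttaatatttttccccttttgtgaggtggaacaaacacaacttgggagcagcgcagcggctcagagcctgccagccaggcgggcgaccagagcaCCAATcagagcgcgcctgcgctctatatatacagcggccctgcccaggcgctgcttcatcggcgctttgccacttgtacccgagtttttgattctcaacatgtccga
In H2BC8 the octamer begins at -48 from the start site and a TATA box at -32. In H2BC4 an octamer begins at -123, and H1-2 holds a CCAAT box at -57 and no octamer. RefSeq promoters matched 64 of 69 members, and those of H4C1, H4C3, H2AC12, H3C11 and H3C12 were not used here. The octamer, which the factor POU2F1 (Oct-1) is known to bind in H2B promoters, was sought on either strand. It was present in 14 of 18 H2B and 11 of 16 H2A promoters, 1 of 11 H3 promoters, 0 of 6 H1 promoters and 0 of 13 H4 promoters. The H3 promoter with it is that of H3C4, whose annotated start is the same as that of H2AC7, so 1 promoter was counted in both classes. The octamer was in 1.71% of 27241 other promoters. A CCAAT box was in all 6 H1, 16 H2A, 18 H2B and 11 H3 promoters matched and in 3 of 13 H4 promoters, against 35.6% of the others. TATAAA was in 42 of 64 member promoters (65.6%) and in 11.8% of the others.

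Most histone mRNAs that could be measured were higher after EV, and the linker gene H1-2 was lower. Of the 69 members, 37 passed the count filter (at least 10 counts at the median library size in 2 or more samples), 28 had counts below it, and H2AC1, H2BC1, H2BC3 and H3C4 had 0 counts in all 4 libraries. A gene was called when its edgeR quasi-likelihood p, adjusted over all 17465 genes tested, was under 0.05. Of the 37 tested members 29 were called higher in EV, against 34.5% of all genes tested. H1-2 was called lower, against 31.5% of all genes. H2AC18, H2AC25, H2BC4, H2BC7, H3C6, H3C10 and H4C8 were not called. The fitted log2 fold changes ran from -0.69 to 8.13 with a median of 1.96, and the median over all genes tested was 0.02. Without filtering, the EV samples lay above the WFI samples with no overlap for 51 of the 65 members with a count. The share over all 38205 rows with a count was 32.5%. The EV samples lay below with no overlap for 1 member, against 25.1%. The groups overlapped for 17 of all 69 members, which include the 4 with 0 counts.

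The filter itself favours members that are high in a single group. 12 members passed it through the EV libraries alone, and 11 of these were called higher, a share close to the 92.6% of the 1630 genes that passed in that way. The same background had 0% called lower, so that count says nothing particular about the members. Of 20 members above the cutoff in all 4 libraries, 14 were called higher, 1 lower and 5 not called. Of the 13746 genes above the cutoff in all 4 libraries, 31.5% were called higher and 35.5% lower. The remaining 5 members passed by a mixture of libraries, and 4 of them were higher. Split by the mean level over all 4 samples, 24 of the 31 tested members with a mean log2 CPM under 3 were higher and 0 lower, against 31.6% and 18.6% of 7371 genes. Of the 6 members at a mean log2 CPM of 3 or above, 5 were higher and 1 lower, against 36.6% and 41% of 10094 genes.

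The contrast between EV and WFI was broad, and short genes differed from the rest in it. Members have few exons and short transcripts, so 2 further backgrounds were taken, with the members left out. Of 131 protein-coding genes tested with a merged exon length under 1000 bases, 64.9% were higher and 8.4% lower, with a median log2 fold change of 0.77. Among the 44 members under that length 18 were tested, of which 15 were higher and 1 lower, with a median of 2.45. Of these 18, 9 passed the filter through the EV libraries alone, and all 9 were called higher. Of all genes that passed that way 92.6% were called higher, so those calls say nothing particular about the members. Of the 6 above the cutoff in all 4 libraries, 3 were higher, 1 lower and 2 not called. Of 196 protein-coding genes with 1 exon in every annotated transcript, 26% were higher and 45.9% lower, with a median of -0.44. With the calls made through the EV libraries alone included, the share of members called higher was nearer to that of other short genes than of other single-exon genes. Neither background was split by the way genes passed the filter, and the part of length in the result was not tested.

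Levels are in CPM, for which each library's counts were divided by its TMM-adjusted size, and were summed over all members of a class whether or not they passed the filter. Summed H4 counts were 45.5 and 41.2 CPM in EV against 8.86 and 7.46 CPM in WFI, a ratio of 5.31. Summed H2B counts were 111 and 127 CPM in EV against 43.9 and 44.7 CPM in WFI, a ratio of 2.69. H3 stood at 11.2 and 12.2 CPM in EV against 5.52 and 5.64 CPM in WFI, a ratio of 2.09. For these classes both EV samples were above both WFI samples by more than the spread within either group. H2A was at 43.5 and 35.5 CPM in EV against 24.2 and 26.2 CPM in WFI, a ratio of 1.57, again without overlap. H1 was at 8.19 and 10.7 CPM in EV and 11.96 and 12.48 CPM in WFI, a ratio of 0.773, with the EV samples below. Over all 69 members the sums were 219 and 227 CPM in EV and 94.4 and 96.6 CPM in WFI. An exact permutation test of 2 against 2 samples cannot give a two-sided p below 0.333, so the sums carry no test.

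**Figure D1:**
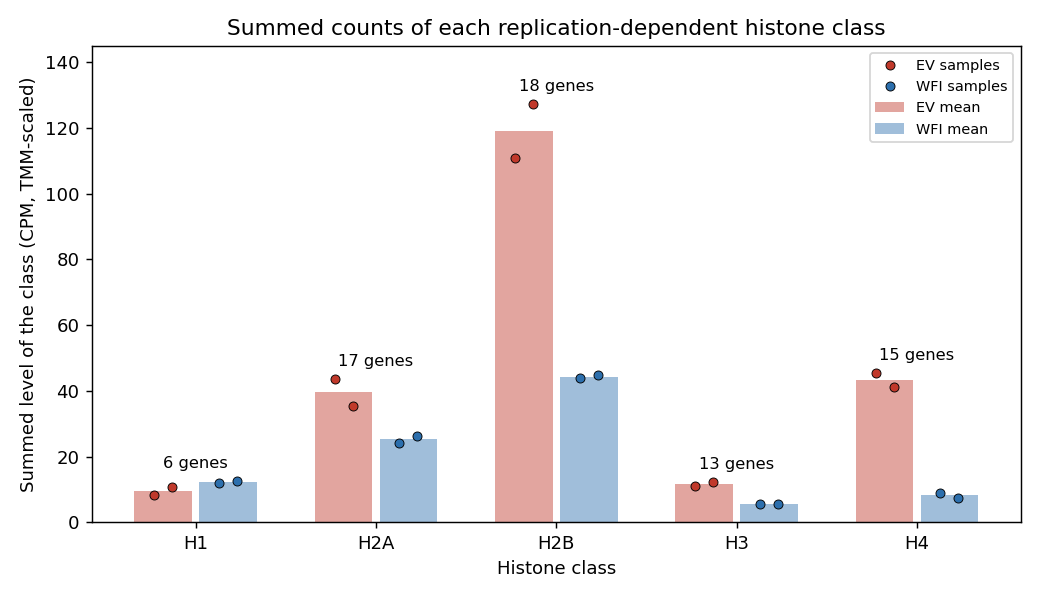
Summed level of each histone class (TMM-scaled CPM, vertical axis) in EV and WFI samples, with bars for the mean of 2 samples, points for the samples, and the number of genes summed above each class. The H4 bar is 5.31 times as high in EV as in WFI, and H1 is the class in which both EV points lie below both WFI points.

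A single gene decided the size of the H1 and H4 ratios. H4C3 held 50.7% of the H4 counts in EV and 0.885% in WFI, and without it the H4 ratio was 2.64. H1-2 held 74.7% of the H1 counts in EV and 92.9% in WFI, and without it the H1 ratio was 2.78, so that the direction turned. H2AC6 held 55.3% of the H2A counts in EV and 67.4% in WFI, and the ratio without it was 2.15. H2BC12 held 40.2% of the H2B counts in EV and 40.4% in WFI, and the ratio without it was 2.69. Leaving out the leading gene of a class was chosen after seeing the data.

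Linker histone H1 genes gave 1 fall and 1 rise. H1-2 (ENSG00000187837, GRCh38.p14 chromosome 6, 26055740 to 26056470, minus strand) encodes the linker protein H1.2 and had 101 and 165 counts in EV against 229 and 243 in WFI. Both EV samples lay below both WFI samples, and the difference was called (log2 fold change -0.69, SE 0.20, edgeR adjusted p = 0.0119). H1-4, which encodes H1.4, had 25 and 29 counts in EV against 13 and 6 in WFI (1.64, SE 0.55, edgeR adjusted p = 0.0228). Leaving out WFI replicate 2 (edgeR adjusted p = 0.247) or EV replicate 2 (0.0666) ended this call, and the log2 fold change was 2.27 without WFI replicate 1. Among the H1 genes below the filter, H1-3 had 12 and 2 counts in EV and 4 and 7 in WFI, and H1-5 had 5 and 11 in EV and 0 and 5 in WFI. H1-1 and H1-6 had at most 4 counts in any library. The H1 genes other than H1-2 thus had at most 29 counts in any library.

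H2A proteins pair with H2B in the outer part of the nucleosome core. Of 9 tested H2A genes 7 were higher, against 34.5% of all genes tested. All 3 that passed the filter through the EV libraries alone were higher, as were 92.6% of all such genes. Of the 4 above the cutoff in all 4 libraries 3 were higher, against 31.5% of all genes above that cutoff. H2AC6 (ENSG00000180573, chromosome 6, 26124172 to 26124690, plus strand) had 448 and 371 counts in EV against 356 and 351 in WFI. Its groups lay close together though they did not overlap on the CPM scale, at 21.9 ± 3.86 CPM in EV and 17.0 ± 0.324 CPM in WFI (SD, n = 2 each, log2 fold change 0.36, SE 0.14, edgeR adjusted p = 0.0348). The H2AC6 call was lost when EV replicate 1 was left out (edgeR adjusted p = 0.213), without WFI replicate 1 (0.114) and without WFI replicate 2 (0.160), and with DESeq2 (0.0633). H2AC8 had 63 and 44 counts in EV and 11 and 9 in WFI (2.56, SE 0.45, edgeR adjusted p = 0.000503). H2AC19 had 43 and 40 in EV and 11 and 12 in WFI (1.99, SE 0.45, edgeR adjusted p = 0.00244), and H2AC20 had 35 and 22 in EV and 2 and 7 in WFI (2.78, SE 0.67, edgeR adjusted p = 0.0037), with 2.14 without WFI replicate 1 and 3.86 without WFI replicate 2. For these 3 genes every EV count was above every WFI count.

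H2AC11 had 33 and 50 counts in EV against 17 and 23 in WFI (log2 fold change 1.19, SE 0.42, edgeR adjusted p = 0.0285). Its call was lost without EV replicate 2 (0.106), WFI replicate 1 (0.185) or WFI replicate 2 (0.0675), each an edgeR adjusted p, and with DESeq2 (0.0776). H2AC12 had 33 and 21 counts in EV and 1 and 0 in WFI, a ratio of 59.8 with an exact 95% interval from 10.3 to 2400 that covers counting error alone. H2AC21 had 15 and 18 in EV and 0 and 3 in WFI (ratio 12.2, 95% interval 3.82 to 62.1), and lost its call without WFI replicate 1 (edgeR adjusted p = 0.150). These 2 genes, near 0 in WFI, and H2AC20 passed the filter through the EV libraries alone. The 2 H2A genes that were not called differ from each other. H2AC25, on chromosome 1, had 70 and 82 counts in EV and 69 and 120 in WFI (-0.17, edgeR adjusted p = 0.643), so its groups overlapped. H2AC18 had 17 and 20 in EV and 10 and 10 in WFI (1.02, edgeR adjusted p = 0.121). Of the 50-base windows of H2AC18 and H2AC19, 100% and 97.1% occur in another annotated gene, so which gene their reads came from is uncertain. For H2AC20 this share was 30.5%, so the source of its reads is uncertain in part. Without WFI replicate 1 the fitted log2 fold change was 7.81 for H2AC12 and 2.53 for H2AC21, and without WFI replicate 2 it was 4.70 for H2AC12 and 7.09 for H2AC21.

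H2B, the class with the most tested genes, gave the most rises. Of 14 tested 12 were higher and 0 lower, against 34.5% and 31.5% of all genes tested. H2BC12 (ENSG00000197903, 27138293 to 27146858 on chromosome 6, minus strand) showed 845 and 954 counts in EV against 383 and 361 in WFI. It averaged 47.9 ± 2.00 CPM in EV and 17.9 ± 0.911 CPM in WFI (SD, n = 2 each, log2 fold change 1.42, SE 0.09, edgeR adjusted p = 2.02e-07). Of the sequence windows of H2BC12, 74.1% occur in another annotated gene, so which gene its reads came from is uncertain. H2BC21 (149884459 to 149886682 on chromosome 1, minus strand) had 344 and 423 in EV against 123 and 160 in WFI (1.58, SE 0.16, edgeR adjusted p = 6.04e-06). Both genes are among those reported to make polyadenylated transcripts. H2BC8 (ENSG00000273802, 26216200 to 26216688 on chromosome 6, minus strand) showed 151 and 192 counts in EV against 17 and 14 in WFI, at 9.11 ± 1.14 CPM in EV and 0.746 ± 0.109 CPM in WFI (SD, n = 2 each). Its log2 fold change of 3.60 (SE 0.29, edgeR adjusted p = 9.08e-07) was larger than those of H2BC12 and H2BC21 by more than their standard errors, without a test of that difference.

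H2BC9 had 81 and 120 counts in EV against 18 and 19 in WFI (log2 fold change 2.57, SE 0.34, edgeR adjusted p = 5.12e-05). H2BC26 had 65 and 111 in EV and 23 and 26 in WFI (1.98, SE 0.35, edgeR adjusted p = 0.000517), and H2BC15 had 64 and 55 in EV and 22 and 23 in WFI (1.55, SE 0.36, edgeR adjusted p = 0.00302). H2BC6 had 35 and 59 in EV and 9 and 14 in WFI (2.16, SE 0.47, edgeR adjusted p = 0.00207), and H2BC18 had 41 and 39 in EV and 14 and 11 in WFI (1.82, SE 0.45, edgeR adjusted p = 0.00438). In all 5 the EV samples stood clear of the WFI samples. Of the sequence windows of H2BC18 and H2BC17, 25.7% and 13.6% occur in another annotated gene, so the source of their reads is uncertain in part. H2BC11 had 55 and 94 in EV and 36 and 38 in WFI (1.15, SE 0.34, edgeR adjusted p = 0.0116), a call lost without EV replicate 2 (0.0687). H2BC17 had 21 and 42 in EV and 7 and 1 in WFI (3.07, SE 0.74, edgeR adjusted p = 0.00361), with 4.92 without WFI replicate 1 and 2.24 without WFI replicate 2. H2BC10 had 12 and 14 in EV and 0 and 1 in WFI (ratio 28.8, 95% interval 4.73 to 1180), and lost its call without WFI replicate 1 (edgeR adjusted p = 0.127). Its fitted log2 fold change was 3.66 without WFI replicate 1 and 6.75 without WFI replicate 2.

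The remaining tested H2B genes moved little or were uneven between samples. H2BC5 had 213 and 266 counts in EV against 188 and 202 in WFI (log2 fold change 0.44, SE 0.15, edgeR adjusted p = 0.0247). The H2BC5 call was lost without EV replicate 2 (0.0889), without WFI replicate 1 (0.205), without WFI replicate 2 (0.114), each an edgeR adjusted p, and with DESeq2 (0.0747). H2BC4 had 65 and 59 in EV and 58 and 66 in WFI (0.15, SE 0.29, edgeR adjusted p = 0.667), and its groups overlapped. H2BC7 had 10 and 19 in EV and 8 and 0 in WFI (1.96, edgeR adjusted p = 0.0934), and its EV samples lay above WFI samples that were themselves unlike. The H2BC7 value was 6.90 without WFI replicate 1 (edgeR adjusted p = 0.0277), when the other WFI library had 0 counts, and 0.94 without WFI replicate 2. H2BC7, H2BC10 and H2BC17 passed the filter through the EV libraries alone. Of 10 H2B genes above the cutoff in all 4 libraries 9 were higher, against 31.5% of all genes above that cutoff.

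H3 pairs with H4 in the centre of the nucleosome, and H3 had the smallest share of genes that could be tested, 4 of 13. H3C11 had 30 and 19 counts in EV against 0 and 3 in WFI (ratio 18.1, 95% interval 5.83 to 90.7, edgeR adjusted p = 0.00201). H3C12 had 29 and 31 in EV against 1 and 2 in WFI (ratio 22.1, 95% interval 7.22 to 110, edgeR adjusted p = 0.00024). Both were near 0 in WFI and passed the filter through the EV libraries. The fitted log2 fold change of H3C11 was 3.11 without WFI replicate 1 and 7.67 without WFI replicate 2. Of the sequence windows of H3C12, 40.9% occur in another annotated gene, so the source of its reads is uncertain in part. H3C6 had 47 and 79 in EV and 64 and 76 in WFI (log2 fold change -0.01, SE 0.31, edgeR adjusted p = 0.976), and its groups overlapped. H3C10 had 40 and 45 in EV and 27 and 22 in WFI (0.94, SE 0.38, edgeR adjusted p = 0.0511). H3C10 was just outside the threshold, and crossed it under RLE scaling (0.0475) and upper quartile scaling (0.0413).

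H4C3 gave the largest difference of any member. H4C3 (ENSG00000197061, chromosome 6, 26103933 to 26104337, plus strand) had 433 and 391 counts in EV against 2 and 1 in WFI. It stood at 22.0 ± 2.55 CPM in EV and 0.0723 ± 0.0347 CPM in WFI (SD, n = 2 each, edgeR adjusted p = 2.39e-09), a ratio of 304 with an exact 95% interval from 104 to 1477 that covers counting error alone. None of the 50-base windows of H4C3 occurs in another annotated gene (0%), and the other H4 genes had at most 91 counts in any library. H4C8, an H4 gene that was not called, had 88 and 91 in EV and 79 and 64 in WFI (log2 fold change 0.47, SE 0.26, edgeR adjusted p = 0.131), its EV samples lying narrowly above. H4C3 and H4C8 lie in the same cluster on chromosome 6.

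H4C12 had 68 and 70 counts in EV and 21 and 9 in WFI (log2 fold change 2.34, SE 0.43, edgeR adjusted p = 0.000665), and the fold change was 3.04 without WFI replicate 1. H4C15 had 41 and 41 in EV and 9 and 4 in WFI (2.78, SE 0.54, edgeR adjusted p = 0.00094), and 3.44 without WFI replicate 1. H4C14 had 28 and 31 in EV and 6 and 9 in WFI (2.10, edgeR adjusted p = 0.00492) and lost its call without WFI replicate 1 (0.0702). H4C12, H4C14 and H4C15 share 97.2% to 100% of their 50-base windows with other annotated genes, so which gene the reads came from is uncertain. H4C16, the member on chromosome 12 (14770720 to 14771131, minus strand), had 64 and 75 in EV and 34 and 46 in WFI (0.94, SE 0.31, edgeR adjusted p = 0.0214), a call lost without WFI replicate 1 (0.178) and with DESeq2 (0.0579). H4C5 had 36 and 38 in EV and 16 and 16 in WFI (1.35, edgeR adjusted p = 0.0172), a call lost without WFI replicate 1 (0.102), without WFI replicate 2 (0.105) and with DESeq2 (0.0563). H4C4 had 14 and 11 in EV and 3 and 3 in WFI (2.16, edgeR adjusted p = 0.0233), and lost its call whichever library was left out, with edgeR adjusted p from 0.0580 to 0.311. The H4 class thus had 7 of 8 tested genes higher, against 34.5% of all genes tested. H4C3, H4C4, H4C14 and H4C15 passed the filter through the EV libraries alone, where 92.6% of genes were called higher. Of the 3 H4 genes above the cutoff in all 4 libraries (H4C5, H4C8 and H4C16) 2 were higher, against 31.5% of all such genes. H4C3, H4C12 and H4C15 kept the call whichever library was left out.

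**Figure D2:**
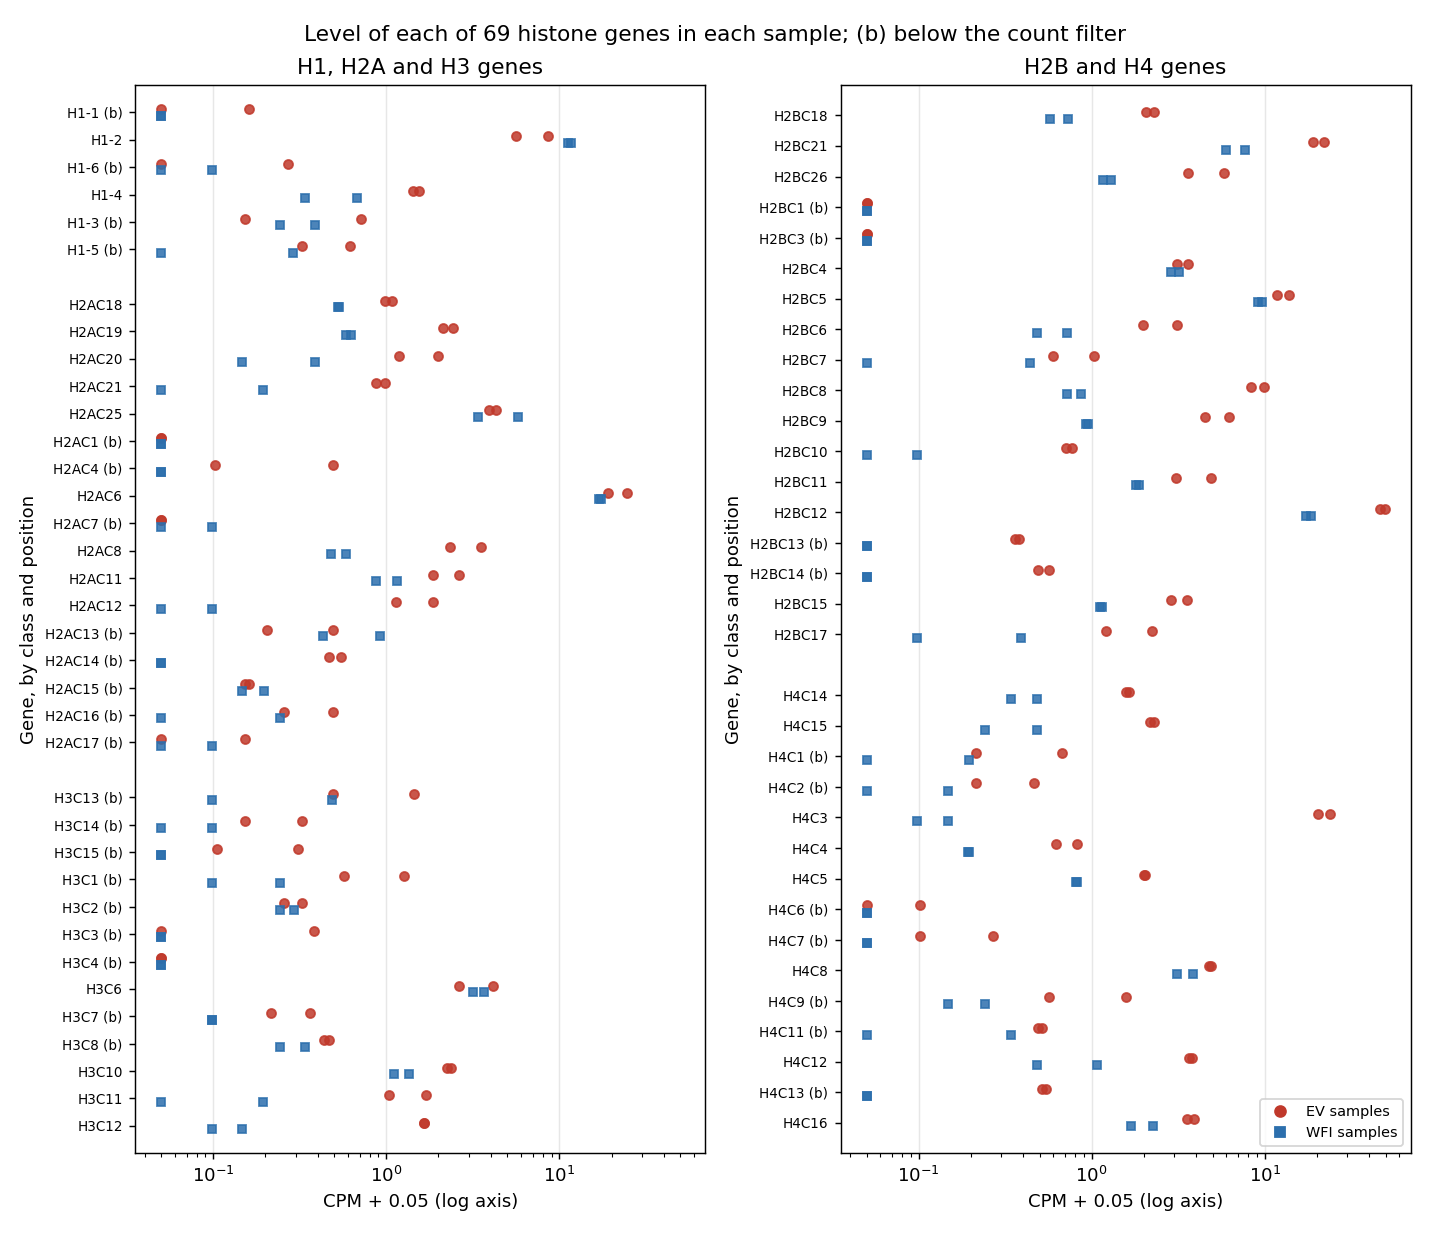
Level of each of the 69 genes in each of the 4 samples (horizontal log axis, CPM plus 0.05 so that 0 counts can be drawn), with EV as circles above WFI as squares and (b) marking genes below the count filter. H4C3 has the widest gap, and H1-2 is the gene whose EV points lie to the left of its WFI points without overlap.

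The 32 members below the filter also had more counts in EV. Together they had 184 and 161 counts in EV against 63 and 45 in WFI, a scaled ratio of 3.54. Of all 32, 24 (75%) had more counts in EV, a share that includes the 4 members with no count in any library. The other 20712 rows below the filter with a count had a ratio of 1.90, and 61.0% of them had more counts in EV. H2AC14 had 9 and 8 counts in EV, H2BC14 8 and 10, H2BC13 6 and 6, and H4C13 9 and 9, all with 0 in both WFI libraries. Against a floor of 3 counts per library these are at least 3.15-fold, 3.31-fold, 2.22-fold and 3.32-fold higher. H3C1 had 22 and 10 in EV and 1 and 4 in WFI, H4C9 28 and 10 in EV and 2 and 4 in WFI, and H3C13 8 and 27 in EV and 9 and 1 in WFI. H2AC13 ran the other way, with 8 and 3 in EV and 18 and 8 in WFI, and its groups overlapped. The others with 10 or more counts in all were H2AC16, H3C2, H3C8, H3C7, H4C1, H4C2 and H4C11, with 0 to 12 counts in any library. H1-1, H1-6, H2AC4, H2AC7, H2AC15, H2AC17, H3C3, H3C14, H3C15, H4C6 and H4C7 had fewer than 10 counts in all, too few to describe.

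Grouped by position, with gaps of over 200000 bases taken to separate clusters, the members fall into 7 places. For comparison, 32.5% of all rows with a count had EV above WFI without overlap, and 34.5% of all genes tested were higher. In the larger cluster on chromosome 1 (149782689 to 149887965) all 11 members had both EV samples above both WFI samples, 7 of 8 tested were higher, and the summed ratio was 3.43. The pair of genes at 228457364 to 228458558 on chromosome 1 had 1 of 2 higher and a summed ratio of 1.52. The largest cluster, on chromosome 6 from 26017032 to 26285534, holds 32 members, of which 16 were tested, 11 higher and 1 lower. Its summed ratio was 1.96, and its fold changes ran over the full range of the members, from H1-2 to H4C3. At 27132316 to 27147562 on chromosome 6 all 5 members had EV above WFI, 4 of 4 tested were higher and the ratio was 2.71. At 27807479 to 27893891, 13 of 16 members had EV above WFI, 5 of 6 tested were higher and the ratio was 3.83. The 2 members at 25726063 to 25727345, H2AC1 and H2BC1, had 0 counts, and H4C16 stands alone on chromosome 12. On chromosome 1, H2AC18, H2AC19, H3C13, H3C14, H3C15, H4C14 and H4C15 share 80.4% to 100% of their sequence windows with other annotated genes. Which gene their reads came from is uncertain, so the 11 members of the larger cluster there may not be separate observations. Of the 7 genes called higher in that cluster, 4 passed the filter through the EV libraries alone. Of all genes that passed that way 92.6% were called higher. Of the genes called higher in the chromosome 6 clusters that begin at 26017032, 27132316 and 27807479, 3, 1 and 3 passed through the EV libraries alone. Rises were therefore seen in each cluster that had a tested gene, and no difference between clusters was tested.

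**Figure D3:**
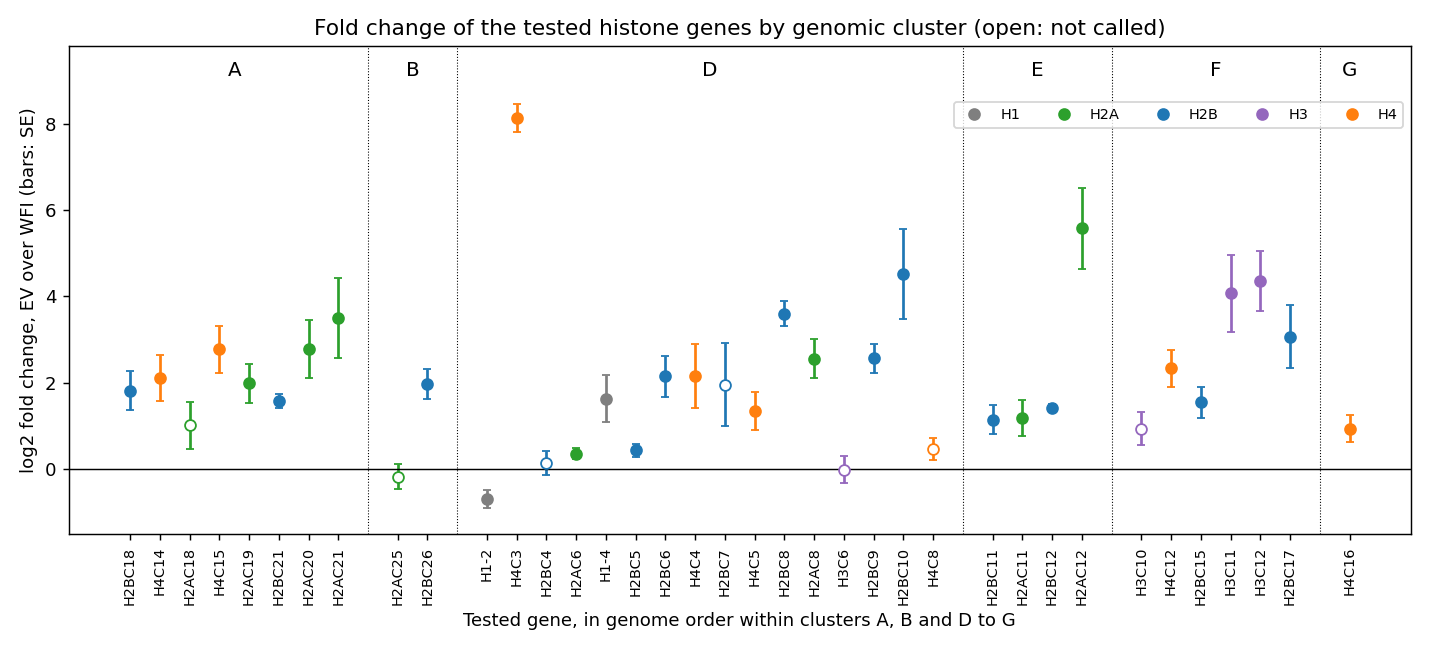
Fitted log2 fold change of the 37 tested genes (EV over WFI, bars for the standard error), in genome order, coloured by class, with open symbols for genes that were not called. A and B are the clusters on chromosome 1, D, E and F those on chromosome 6 in order of position, and G is H4C16 on chromosome 12. Values for genes with 3 or fewer WFI counts depend on the prior count of the fit, and cluster D spans the range from -0.69 for H1-2 to 8.13 for H4C3.

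H2A and H2B genes that face each other across a shared promoter region did not always change together. The annotation holds 12 such H2A and H2B pairs, with 193 to 247 bases between the starts. H2AC8 and H2BC8, H2AC11 and H2BC11, H2AC12 and H2BC12, and H2AC20 and H2BC21 were each higher in both genes. In the pair H2AC25 and H2BC26 the H2A gene was not called at -0.17 while the H2B gene was higher at 1.98, both as log2 fold changes. In the pair H2AC6 and H2BC4 the values were 0.36 and 0.15, and H2AC6 alone was called. Differences within a pair were not tested. H2AC15 and H2AC17 lay at 0 to 3 counts in every library while their partners H2BC15 and H2BC17 were higher. Of the H2A and H2B genes above the cutoff in all 4 libraries, 8 of 9 with an octamer in the promoter were higher and 4 of 5 without it, against 31.5% of all genes above that cutoff. No difference between the 2 kinds of promoter was tested.

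**Figure D4:**
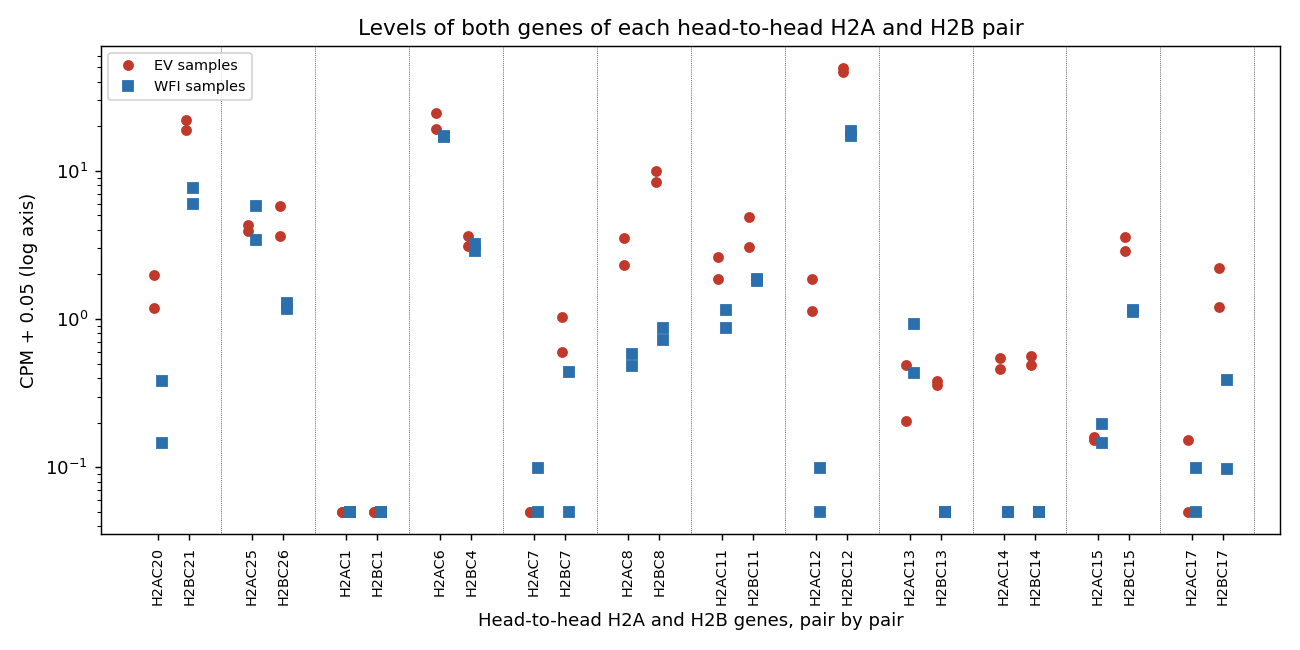
Levels (CPM plus 0.05, log axis) of the 2 genes of each head-to-head H2A and H2B pair in EV samples (circles) and WFI samples (squares). In the pair H2AC25 and H2BC26 the samples of the H2A gene overlap and those of the H2B gene do not.

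Polyadenylated forms and RNAs without a tail bear on how these values were measured. Whether the libraries were made with poly(A) selection or rRNA depletion is not given in the sources used here. Of the 6 members listed as reported to make polyadenylated transcripts (H1-2, H2AC6, H2BC4, H2BC5, H2BC12 and H2BC21), 4 were higher, 1 was lower and 1 was not called, with a median log2 fold change of 0.40. Their summed level was 111 and 116 CPM in EV and 64.7 and 66.1 CPM in WFI. Of 38 listed RNAs that carry no poly(A) tail, such as small nuclear and nucleolar RNAs, 15 had 0 counts in all libraries. Of the 38, 6 passed the filter, of which 4 were higher and 0 lower. Over all genes tested 34.5% were higher and 31.5% lower. SNORD3A, the U3 RNA that guides ribosomal RNA processing, had 90 and 144 counts in EV and 3 and 5 in WFI (4.96, SE 0.45, edgeR adjusted p = 2.40e-06). RNU5A-1, a spliceosomal RNA, had 95 and 86 in EV and 10 and 10 in WFI (3.31, SE 0.37, edgeR adjusted p = 1.43e-05). RNU4ATAC had 10 and 12 in EV and 0 in both WFI libraries, and RNU4-2 had 14 and 16 in EV and 2 and 0 in WFI. SNORD3A, RNU4ATAC and RNU4-2 passed the filter through the EV libraries alone. Of all genes that passed that way 92.6% were higher and 0% lower, so their calls say nothing particular about these RNAs. RN7SL1, of the signal recognition particle, had 569 and 870 in EV and 846 and 1024 in WFI (-0.24, edgeR adjusted p = 0.181), with overlapping groups. SNORA73B, a nucleolar RNA, had 2 and 7 in EV and 14 and 12 in WFI (-1.37, edgeR adjusted p = 0.125), its EV samples below. Counts of RNAs without a tail thus moved with the contrast for some of these RNAs, and what this has to do with the histone values was not tested.

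Genes that make, process and receive histone mRNA and protein moved in both directions, as did all genes tested. Of 32 genes of histone mRNA transcription, processing and decay, all tested, 15 were higher, 10 lower and 7 not called. Their median log2 fold change was 0.15. Over all genes tested 34.5% were higher and 31.5% lower, with a median of 0.02. SLBP, the stem-loop binding protein, averaged 112 CPM in EV and 79.7 CPM in WFI (0.49, edgeR adjusted p = 1.05e-05). NPAT, the histone gene coactivator, averaged 14.2 ± 1.57 CPM in EV and 41.7 ± 0.480 CPM in WFI (SD, n = 2 each, -1.56, edgeR adjusted p = 2.76e-07). CASP8AP2 (FLASH), a cleavage factor partner of the U7 snRNP, was higher by 0.32 (edgeR adjusted p = 0.0103). The smallest adjusted p values of this list were for SNRPB, an Sm protein (0.87), E2F1, an S phase transcription factor (1.04), and SRRT, a cap complex partner (0.92), all higher. POU2F1, the octamer factor, averaged 14.6 ± 0.373 CPM in EV and 40.4 ± 1.52 CPM in WFI (SD, n = 2 each, -1.47, edgeR adjusted p = 2.48e-07), and is named after its value was seen. SLBP and NPAT thus changed in opposite directions.

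Of 19 histone chaperones tested 9 were higher and 6 lower, with a median log2 fold change of 0.27. The shares over all genes tested, also for the S phase and G2 and M phase lists that follow, were 34.5% higher and 31.5% lower. NASP, a carrier of H3 and H4, averaged 952 ± 15.9 CPM in EV and 174 ± 5.09 CPM in WFI (SD, n = 2 each, 2.45, edgeR adjusted p = 8.29e-13). ASF1B, which also binds H3 and H4, was higher by 1.56, and ATRX, a chromatin remodeller that works with the H3.3 chaperone DAXX, fell by 1.87 on the log2 scale. Of 35 S phase genes 23 were higher and 7 lower (median 0.36), led by PCNA, the sliding clamp of DNA synthesis, at 784 ± 4.10 CPM in EV and 118 ± 0.353 CPM in WFI (SD, n = 2 each). TK1, a nucleotide salvage kinase, and RFC4, a clamp loader subunit, were higher by 0.98 and 1.04. Of 31 G2 and M phase genes 15 were higher and 12 lower (median 0.17), with NEK2 at 1.87, CKS2 at 2.03 and CENPF at -1.61. In bulk RNA, a change in the share of cells in S phase and a change in RNA per cell cannot be told apart.

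Of 16 listed replication-independent variants, which can also be made outside S phase, 13 were tested. Of these 9 were higher and 2 lower, with a median log2 fold change of 1.03. Over all genes tested 34.5% were higher and 31.5% lower, with a median of 0.02. H3-3B, a gene of the variant H3.3, averaged 1453 ± 25.7 CPM in EV and 548 ± 6.72 CPM in WFI (SD, n = 2 each, 1.41, edgeR adjusted p = 1.03e-11). H2AZ1 was higher by 1.67 and H3-3A by 1.07. H1-10, a linker variant, was higher by 1.19 (log2 fold change), while the replication-dependent linker gene H1-2 was lower.

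**Figure D5:**
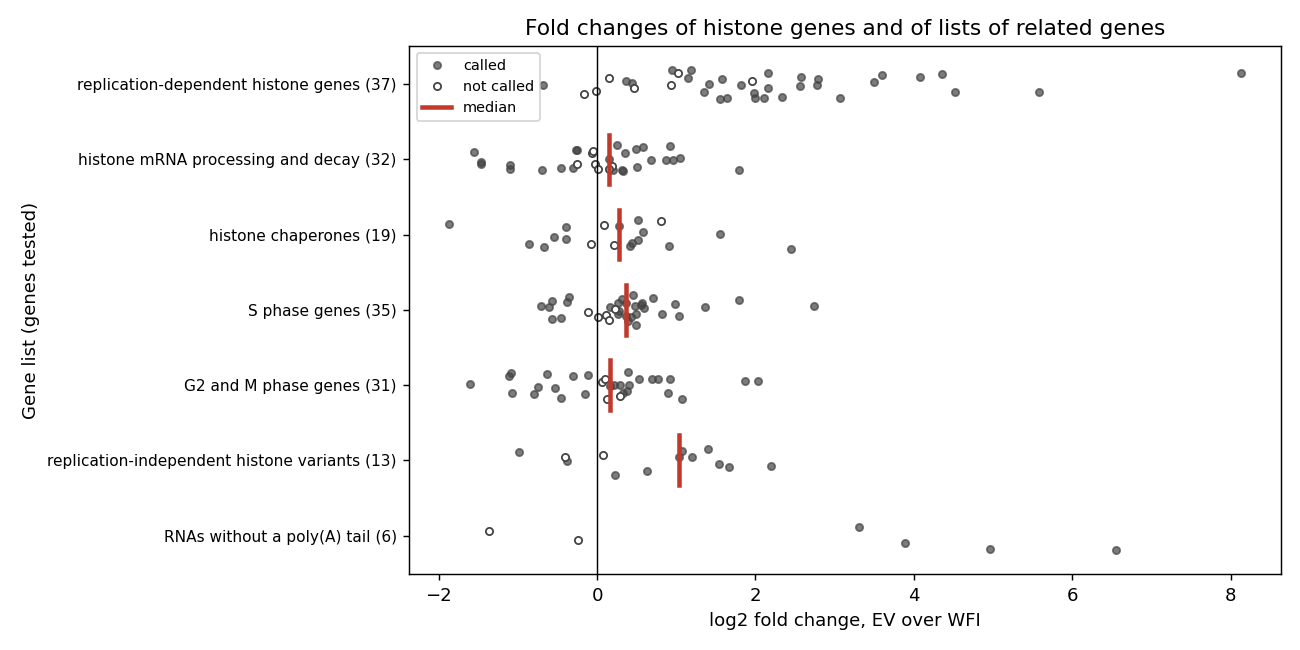
Fitted log2 fold change (EV over WFI) of the tested genes of each list, with filled points for called genes and open points for genes not called. Red bars mark the medians of the 5 lists in which most listed genes were tested (0.15 to 1.03), and no median is drawn for the replication-dependent genes and the RNAs without a tail, since many of their members had too few counts.

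Total counts were 19368791 and 20727175 in EV and 19447577 and 19669037 in WFI, and a floor of 3 counts corresponds to 0.143 to 0.165 CPM. At least 1 count was seen for 29456 and 28770 rows in EV and for 26258 and 26587 in WFI, and the part of this difference in the histone values was not tested. Replicates differed by more than counting error, with a chi-square of 4.72 per degree of freedom in EV and 2.25 in WFI, so the 2 libraries of a group were not merged, which does not show that they are separate cultures. Of 20 urothelial and epithelial markers 12 were tested and 11 were higher, against 34.5% of all genes tested. KRT5, TP63, UPK1A and EPCAM passed the filter through the EV libraries alone, where 92.6% of all genes were called higher. Their calls therefore say nothing particular about these markers. The keratins KRT8, KRT18 and KRT7 were at 436 CPM or more in every group mean except KRT18 in WFI, at 387 CPM. CDH1, KRT19, KRT20 and UPK3A had 0 to 9 counts in any library. GATA3, a urothelial transcription factor, had 183 and 195 counts in EV and 16 and 19 in WFI, the basal keratin KRT5 had 97 and 134 in EV, and TP63, a basal transcription factor, had 30 and 27 in EV, with KRT5 and TP63 at 0 in both WFI libraries. The labelled identity thus had some of its markers near 0 in all libraries and others that moved with the contrast, and their part in the histone values was not tested. Of 15 markers of other cell types 5 were tested, of which DES and PECAM1 were higher, against 34.5% of all genes tested. DES had 13 and 21 counts in EV and 1 and 0 in WFI, and passed the filter through the EV libraries alone. PDGFRB, ACTA2 and COL1A1 were not called, with log2 fold changes of -0.58, -0.58 and -0.31. The sum over all 15 markers was 19.3 and 19.7 CPM in EV and 15.5 and 17.6 CPM in WFI. PECAM1, an endothelial gene, had 76 and 93 counts in EV and 24 and 46 in WFI, and VWF, another, had 5 and 22 in EV and 5 and 3 in WFI. The endothelial cadherin CDH5 and the blood cell markers PTPRC and CD3E had 0 to 9 counts in any library. The part of other cell types in the histone values was not tested.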

How the data were processed

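Libraries were made from total RNA with a directional kit, per the labels' protocols, and the build was hg38, per the submitters' processing notes. Not given in the sources used here were aligner, counter, strand setting, annotation release and any poly(A) selection. The authors deposited whole-number counts per gene, with no normalization. Of 61860 rows, 61757 matched a symbol by Ensembl ID. Members and gene lists were chosen with earlier results of these data known.

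Counts were tested with edgeR 4.0.16 in R 4.3.3 (TMM scaling, filterByExpr, quasi-likelihood test, group as the only term, Benjamini-Hochberg adjustment over 17465 genes). The standard error is the log2 fold change over the square root of F. Ratios for 1 to 3 WFI counts carry exact binomial 95% intervals, and bounds for 0 counts use a floor of 3 counts per library. Positions are RefSeq's on GRCh38.p14, transcripts are from GENCODE 29, and the strand of reads from overlapping genes is unknown. Members passing the filter were named with their counts, others with 10 or more counts by their values, and of each list the 3 genes with the smallest adjusted p plus SLBP, NPAT and CASP8AP2. Some list genes are not reported here. Alternatives were DESeq2 1.42.0, other scalings and filters, a replicate block and leaving out each library. Deviations of same-numbered samples did not correlate, which does not tell whether those samples were handled together.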

Additional observations from a re-analysis of the deposited data

How the results depend on the processing

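The number of members called higher (29) was 12 with a filter of 50 counts in 2 samples, which removed most members from the test, and 22 to 27 when a library was left out. It was 22 with DESeq2, 29 with no filter and 30 under RLE or upper quartile scaling. The 29 with no filter were not the same genes. H2AC6, H2AC11, H2BC5, H4C4 and H4C16, 5 in all, lost the call there (edgeR adjusted p from 0.0629 to 0.101), and other members gained one. Of the 29, 18 kept the call in every alternative that gave a value and 11 lost it in at least 1. With an absolute log2 fold change of at least 1 required, 26 members were higher and 0 lower, and over all genes 3063 were higher and 2322 lower. The log2 ratio of the summed class moved to 1.10 for H2A without H2AC6 and 1.40 for H4 without H4C3, and reversed to 1.47 for H1 without H1-2. Scaling by the total count lowered all log2 values by 0.18, to 1.24 for H2B and 0.88 for H3. The log2 fold change of H3C6, which was not called, turned positive under RLE scaling (0.0077), upper quartile scaling (0.0437), the filter of 50 counts (0.0353) and DESeq2 (0.00658), and ran from -0.40 to 0.27 when a library was left out. That of H2AC25, also not called, ran from -0.54 to 0.24 in the same way. With a replicate block 28 members were higher and 1 lower, and 5957 and 5573 genes, with H4C4 losing its call (edgeR adjusted p = 0.0725). The labels state no pairing, and deviations of same-numbered samples correlated at r = 0.00948 over 11166 genes. With 2 samples per group this does not tell whether same-numbered samples were handled together. Low counts limit the precision of most members.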
